A study of Mus musculus and Homo sapiens with 24 samples.

Results

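A set of 10 genes that mark the granulocytic lineage were followed in K-562 cells: *TCN1*, *MS4A3*, *MPO*, *ELANE*, *PRTN3*, *CTSG*, *AZU1*, *PRG2*, *CEBPE* and *SRGN*. They are 10 of the 58721 human genes in the files, of which 17936 had enough counts to be tested. The members were chosen by name, with their K-562 read counts and fold changes from an earlier look at these same libraries in view, so their levels and differences are given as a description. No p-value is printed for a member. The lists of related genes below were also drawn up with earlier results known, so adjusted p-values printed for their genes are a description. Whether members passed the test's threshold appears only as counts and as a check on single libraries, and nothing is read from it. Of the 10 genes, 6 were detected in at least 1 group, with at least 10 counts in each of its 3 libraries, and 4 in no group. *TCN1*, *MS4A3* and *SRGN* were detected in all 4 groups. *AZU1*, *CEBPE* and *PRG2* were detected in some groups. *MPO*, *ELANE*, *PRTN3* and *CTSG* were detected in none, and *CTSG* had 0 counts in all 12 libraries.

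K-562 is a line grown from chronic myeloid leukaemia cells, and it makes fetal and embryonic globins in culture. Polyadenylated RNA was sequenced from 4 groups of 3 libraries: *TET2* wild-type (WT) cells with a control short hairpin RNA (shControl), WT cells with a hairpin against *MBD6* (shMBD6), and *TET2* knockout (KO, *TET2*-/-) cells with either hairpin. The design asks how the RNA changed with loss of *TET2*, which encodes an enzyme that oxidizes 5-methylcytosine, with depletion of *MBD6*, which encodes a protein with a methyl-CpG-binding domain, and with both. All groups, controls included, carried a lentiviral hairpin and were kept under puromycin. The WT and KO lines were made earlier by others. Whether the KO line is a single clone is not stated in the sources used here, *MBD6* was targeted by 1 hairpin, and the labels do not say that the 3 libraries of a group came from separate cultures, although the study describes its genome-wide data as biological replicates. The p-values then measure only the spread between these samples, which may be technical. Differences between groups include any difference between the lines as received. In bulk RNA, fewer cells of a kind and less RNA per cell cannot be told apart.

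Granulocytes take shape in stages, each with its own granules. Promyelocytes fill azurophil granules with myeloperoxidase (*MPO*) and the serine proteases neutrophil elastase (*ELANE*), proteinase 3 (*PRTN3*) and cathepsin G (*CTSG*), beside the inactive relative azurocidin (*AZU1*). Serglycin (*SRGN*) is the proteoglycan core on which such cargo is packed, and many blood cells make it. *CEBPE* encodes C/EBPε, a transcription factor needed for the later granules of neutrophils and eosinophils. *TCN1* encodes haptocorrin, the cobalamin (vitamin B12) binder of neutrophil specific granules. *PRG2* encodes the major basic protein of eosinophils, and *MS4A3* a four-pass membrane protein of granulocyte and monocyte progenitors that is also made by basophils.

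The bases just before the starts of *TCN1*, *MS4A3* and *SRGN* are shown because these 3 genes carry nearly all of the members' signal and differ in how far they moved. Each line gives 250 bases of hg38, 5′ to 3′ on the strand of the gene, ending at the base before the GENCODE 44 gene start. They lie at chr11:59866490-59866739 (minus strand), chr11:60056337-60056586 (plus strand) and chr10:69087853-69088102 (plus strand). Capitals mark exact matches on either strand to TTNNGNAA, the C/EBP motif searched.
TCN1: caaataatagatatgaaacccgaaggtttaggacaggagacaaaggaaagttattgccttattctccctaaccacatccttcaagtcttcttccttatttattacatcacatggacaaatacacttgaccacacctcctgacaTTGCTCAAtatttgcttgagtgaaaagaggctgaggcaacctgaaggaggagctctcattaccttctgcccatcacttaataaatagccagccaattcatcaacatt
MS4A3: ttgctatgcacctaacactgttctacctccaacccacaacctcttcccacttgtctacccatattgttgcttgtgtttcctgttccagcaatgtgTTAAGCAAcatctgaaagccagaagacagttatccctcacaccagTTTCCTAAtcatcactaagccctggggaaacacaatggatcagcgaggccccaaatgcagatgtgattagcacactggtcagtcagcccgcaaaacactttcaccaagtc
SRGN: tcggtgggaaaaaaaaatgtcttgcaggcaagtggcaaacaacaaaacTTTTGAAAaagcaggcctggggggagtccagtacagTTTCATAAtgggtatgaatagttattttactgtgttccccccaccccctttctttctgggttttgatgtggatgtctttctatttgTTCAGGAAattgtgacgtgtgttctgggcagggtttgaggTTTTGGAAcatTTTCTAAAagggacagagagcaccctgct

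In a window of 250 bases before to 50 after the gene start, the C/EBP motif was present in 8 of the 10 members, against 33.2% of the 20044 protein-coding promoters of the same length. *TCN1* had 1 match, 107 bases before the start. *MS4A3* had 3, of which 1 lies past the start and is not shown, and *SRGN* had 6, of which 5 are shown. Whether the number of matches bears on the levels was not tested. GAGGAA, a core of PU.1 sites, was present in 6 members (27.3% of all promoters), CAACNG, the MYB motif, in 6 (31.9%), AGATAA, the GATA motif, in 2 (8.72%) and TGTGGT, a RUNX core, in 1 (12.4%). Both strands were searched, and no matches of different motifs overlapped in the members. The windows of the members held 42.7% to 66.7% G and C, and the median over all promoters was 60.3%. The start of the MANE transcript lies 2 bases from the gene start in *TCN1*, 78 in *MS4A3* and at the same base in *SRGN*, but 1001 bases from it in *CEBPE*, 1289 in *ELANE* and 2740 in *AZU1*, whose windows may miss the promoter in use. A match describes the letters and is not a binding site.

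The 12 libraries held 27625013 to 39877202 counts in genes, and log2 levels of replicates correlated with r between 0.987 and 0.991. *MBD6* was at 82.5 ± 5.60 CPM (counts relative to the TMM-scaled library total; mean ± SD, n = 3 here and below) in WT shControl and 38.0 ± 1.09 in WT shMBD6, and at 77.2 ± 4.59 and 43.3 ± 0.80 in the KO groups. *TET2* mRNA was at 30.8 ± 2.63 CPM in WT and 33.3 ± 0.688 in KO with shControl, where the groups overlapped. With shMBD6 it was at 35.4 ± 2.19 in WT and 31.8 ± 0.815 in KO, where they did not (log2 −0.16, edgeR adjusted p = 0.0549). A count over the whole gene does not check a knockout. Spike-in RNAs (ERCC) gave another scale. On it, the median gene was higher by 1.26 (log2) in KO against WT with shControl, by 0.31 with shMBD6, by 1.13 with shMBD6 against shControl in WT and by 0.18 in KO, and the interaction was lower by 0.95 in the median. All differences below are relative to the bulk of genes. Where the spike-in scale turns the direction of a gene named below, this is stated. *MBD6*, *TET2* and the sums of marker genes are given on the TMM scale only. On it, *MBD6* with shMBD6 was −1.12 (log2) in WT, where the spike-in median shift was 1.13. In KO it was −0.84, where that shift was 0.18. The −0.16 of *TET2* stands beside a shift of 0.31.

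*TCN1* was lowest in WT shControl and highest in the cells that lacked *TET2* and carried shMBD6. Its 3 libraries read 6.38, 6.47 and 7.58 CPM in WT shControl and 35.0, 34.1 and 33.8 CPM in WT shMBD6. In the KO they read 24.1, 22.7 and 22.7 CPM with shControl and 246, 248 and 278 CPM with shMBD6. No library of any group overlapped with another group, and the order WT shControl, KO shControl, WT shMBD6, KO shMBD6 held with gaps far wider than the spread within groups. The level with shMBD6 was 5.05-fold that with shControl in WT (log2 2.34, SE 0.0691) and 11.1-fold in KO (3.48, SE 0.0560). Among the 17936 genes tested, *TCN1* ranked 264 in WT and 33 in KO by log2 fold change with shMBD6. KO against WT was 3.41-fold with shControl (1.77, SE 0.0718) and 7.50-fold with shMBD6 (2.91, SE 0.0537). The effect of shMBD6 was 2.2-fold larger in the KO (interaction 1.14, SE 0.0918), but on the spike-in scale, where the median gene's interaction was −0.95, that of *TCN1* was 0.18 (SE 0.0893).

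*MS4A3* took the same order of groups at similar levels. Its libraries read 15.1, 14.0 and 12.7 CPM in WT shControl, 72.3, 75.2 and 77.5 in WT shMBD6, 46.5, 50.7 and 48.0 in KO shControl and 210, 207 and 236 in KO shMBD6. Again no groups overlapped. shMBD6 against shControl was 5.36-fold in WT (log2 2.42, SE 0.0642) and 4.50-fold in KO (2.17, SE 0.0556), and KO against WT 3.47-fold with shControl (1.79, SE 0.0655) and 2.91-fold with shMBD6 (1.54, SE 0.0537). Unlike that of *TCN1*, its effect of shMBD6 was slightly smaller in the KO (interaction −0.25, SE 0.0847). This interaction passed an adjusted p of 0.05 with all 12 libraries and did not when any of 7 libraries was left out, where it lay between −0.26 and −0.21. Levels were also taken per kilobase of all annotated exons of a gene. The transcripts made are not known, so genes are compared only roughly on this scale. On it *MS4A3* stood above *TCN1* in the 2 WT groups and in KO shControl (6.71 and 4.54, 36.0 and 22.9, 23.3 and 15.4 CPM per kb). In KO shMBD6 *TCN1* stood above *MS4A3* (172 and 105 CPM per kb).

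**Figure D1:**
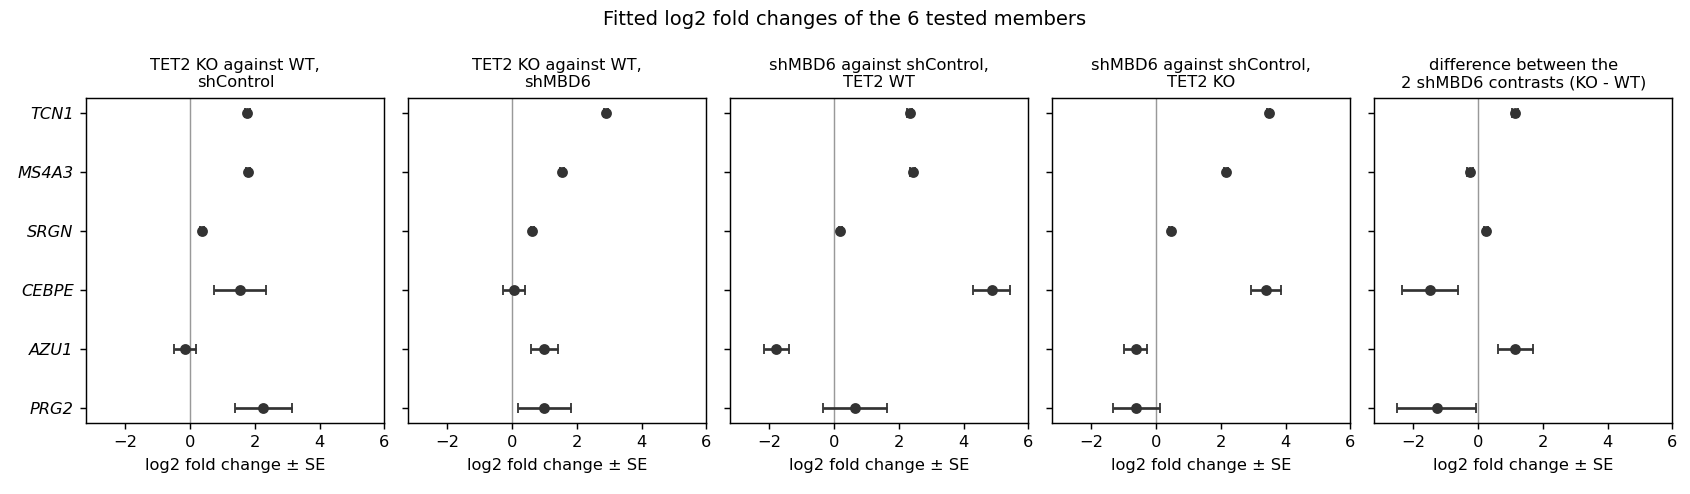
Fitted log2 fold change (x axis, bars ± SE) of the 6 tested members in 4 comparisons of 2 groups and in the interaction of genotype and hairpin. *TCN1* and *MS4A3* lie to the right of 0 in all 4 comparisons of groups, *CEBPE* is farthest right with shMBD6, and *AZU1* lies to the left of 0 with shMBD6.

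Of the members, 6 passed the filter on low counts and entered the test (edgeR quasi-likelihood, adjusted p under 0.05 over all 17936 genes). Members that passed the filter only through a group in which they were high had to differ, and the list was drawn up with these comparisons known, so nothing is read from the counts. In KO against WT with shControl, 4 of the 6 were higher and 0 lower, where 42.8% of all tested genes were called (22.2% higher, 20.7% lower). With shMBD6 this comparison had 3 higher and 0 lower (44.5% of all genes called; 22.9% higher, 21.6% lower). For shMBD6 against shControl, 4 were higher and 1 lower in WT (39.6% called; 20.4% higher, 19.2% lower), and 4 higher and 0 lower in KO (34.8% called; 18.5% higher, 16.3% lower). In the interaction 2 were higher and 1 lower (21.3% called; 10.3% higher, 11% lower). The libraries of the 2 groups did not overlap for 4 of the 6 in each comparison of KO with WT, higher in KO each time, against 51.2% of all genes with shControl (26.3% higher) and 53% with shMBD6 (27% higher). They did not overlap for 5 of the 6 with shMBD6 against shControl in each genotype, 4 of them higher, against 49.6% in WT (25.2% higher) and 44.9% in KO (23.1% higher). On the spike-in scale the members called were 6 higher, 4 higher, 4 higher and 4 higher in the 4 comparisons with 0 lower, and 3 lower with 0 higher in the interaction. On that scale the share of higher genes among all calls was 98.6%, 90.3%, 99.8%, 86.7% and 0.42% in the same order.

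*TCN1* (ENSG00000134827.7, chr11:59852800-59866489) and *MS4A3* (ENSG00000149516.13, chr11:60056587-60071115) lie on the same arm of chromosome 11, with start coordinates 204 kb apart, and the genes between and beyond them included others that moved. Within 500 kb of the start of *TCN1*, 13 other genes were tested of 42 annotated, *MS4A3* among them. With shMBD6, 8 of the 13 were higher and 2 lower in WT, where 20.4% of all tested genes were higher and 19.2% lower. In KO 7 were higher and 1 lower, where 18.5% of all were higher and 16.3% lower. A split at *TCN1*, chosen after the values were seen, put *TCN1* and the 6 tested genes at higher coordinates on one side: *OOSP4B*, *MS4A3*, *MS4A2*, *MS4A6A*, *MS4A4A* and *MS4A4E*. All 7 were higher with shMBD6 in both genotypes. *TCN1* and *MS4A3* are members picked with their fold changes in view. *OOSP4B* passed the filter on low counts only through groups in which it was high. The run of genes is therefore a description. Leaving aside *OOSP4B*, of an oocyte-secreted protein family, the log2 fold changes were 1.58 to 2.60 in WT and 0.49 to 3.48 in KO. *OOSP4B* had 1 count in WT shControl and 36 in WT shMBD6, a ratio of summed CPM of 32.7 (95% exact interval 5.51 to 1329), and 9 and 196 counts in the KO, a ratio of 20.4 (10.5 to 45.3). In KO against WT, 6 of the 7 were called higher with shControl and 7 with shMBD6 (22.2% and 22.9% of all tested genes). *OOSP4B* was the exception with shControl, with 9 counts in the KO against 1 in WT (adjusted p = 0.105). The 7 tested genes at lower coordinates lay between −0.88 and 0.67 in the 4 comparisons, with at most 2 called higher and 2 lower in any of them. *MRPL16*, a mitochondrial ribosomal protein gene 47 kb from *TCN1*, was among them and rose by 0.28 in WT and 0.57 in KO with shMBD6 (SE 0.0348 and 0.0346; adjusted p = 1.61e-06 and 8.55e-11).

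The MS4A genes are a family of four-pass membrane proteins that stand in a row on chromosome 11. A list of 16 genes left out *MS4A3* and *MS4A2* and held *TMEM176A* and *TMEM176B* beside genes named MS4A. Of these 16, 4 were tested, and 3 of the 4, *MS4A4A*, *MS4A4E* and *MS4A6A*, rose in each of the 4 comparisons. In KO against WT 22.2% of all tested genes were called higher with shControl and 22.9% with shMBD6. With shMBD6 against shControl 20.4% were in WT and 18.5% in KO. *MS4A4A*, known from macrophages and mast cells, was at 1.59, 1.86 and 2.37 CPM in WT shControl and at 5.60, 7.46 and 6.38 in WT shMBD6. In the KO it was at 9.01, 9.36 and 9.87 CPM and at 12.4, 14.1 and 13.1. Its gain with shMBD6 was smaller in the KO (interaction −1.26, SE 0.186, edgeR adjusted p = 5.21e-05), the opposite sign to that of *TCN1*. *MS4A1*, which encodes CD20 of B cells, had 3 counts in 1 library and none in the other 11, and 11 of the 16 stayed under 10 counts in every library.

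*CEBPE* was nearly silent with shControl and present with shMBD6. It had 3, 2 and 0 counts in WT shControl and 64, 49 and 57 in WT shMBD6. In the KO it had 2, 5 and 9 counts with shControl and 72, 71 and 36 with shMBD6. The groups with and without the hairpin against *MBD6* did not overlap in either genotype, while WT and KO overlapped under both hairpins. Summed over a group, its CPM with shMBD6 was 30.9 times that with shControl in WT (95% exact interval 13 to 96.5) and 10.5 times in KO (6.29 to 18.8), where the intervals cover counting error only. Even so *CEBPE* stayed low, at 1.63 ± 0.288 CPM in WT shMBD6 and 1.71 ± 0.623 in KO shMBD6. KO against WT was 0.07 (log2, SE 0.345) with shMBD6, and this sign turned when single libraries were left out.

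Among 14 other transcription factors of the granulocyte lineage, 13 were tested. The KO differed from WT with 5 that rose and 2 that fell under shControl, and 7 rose and 2 fell with shMBD6. With shMBD6, 3 rose and 5 fell in WT and 4 rose and 2 fell in KO. The shares over all tested genes in these 4 comparisons were 22.2%, 22.9%, 20.4% and 18.5% higher, and 20.7%, 21.6%, 19.2% and 16.3% lower. *GFI1*, a repressor needed for neutrophil maturation, was at 1.06 ± 0.162 CPM in WT shControl and 5.57 ± 0.493 in KO shControl (log2 2.38, SE 0.175, edgeR adjusted p = 4.56e-10). *KLF5*, a zinc-finger factor, rose with shMBD6 by 1.08 in WT and 1.53 in KO (adjusted p = 0.000666 and 3.86e-05). *CEBPD*, a relative of *CEBPE* induced in maturing neutrophils, went the other way: it fell by 0.79 in WT and by 0.78 in KO (adjusted p = 6.45e-07 and 6.33e-07), though on the spike-in scale, where the median gene was 1.13 higher, its difference in WT was 0.35. *CEBPA*, the early C/EBP of the lineage, was at 3 to 8 counts in WT shControl and 15 to 22 in WT shMBD6 (log2 1.37, SE 0.532, adjusted p = 0.0467), a call that was lost in 9 of the 12 fits without 1 library (0.91 to 1.55), among them those without any WT shMBD6 library. *SPI1*, which encodes PU.1, was at 51.6 to 61.4 CPM in the 4 group means. *IRF8* was not tested and stayed under 10 counts everywhere.

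*SRGN* was the steadiest of the detected members. Its libraries read 54.9, 53.6 and 53.6 CPM in WT shControl, 61.2, 60.5 and 64.0 in WT shMBD6, 73.1, 69.0 and 67.3 in KO shControl and 88.3, 97.8 and 100.0 in KO shMBD6. The groups did not overlap, but the steps between them were small: 1.15-fold with shMBD6 in WT (log2 0.20, SE 0.0502), 1.37-fold in KO (0.45, SE 0.0486), and 1.29-fold and 1.54-fold in KO against WT with shControl and shMBD6 (0.37 and 0.62). On the same rough scale per kilobase *SRGN* was the highest member in the 2 WT groups and in KO shControl, at 44.4, 50.9 and 57.3 CPM per kb. It fell behind *TCN1* and *MS4A3* in KO shMBD6 at 78.4. The interaction was 0.25 (SE 0.0698) and turned to −0.70 on the spike-in scale. Of 16 enzymes that build the chondroitin chains of serglycin, 13 were tested. With shMBD6 3 rose and 4 fell in WT, where 39.6% of all genes were called, and 2 rose and 3 fell in KO, where 34.8% were. Scaled to the spike-ins, these counts became 13 higher and 0 lower, and 6 higher and 1 lower. In KO against WT, *CHST3*, a chondroitin 6-O-sulfotransferase, stood out with 8.69 ± 1.06 CPM in WT shControl and 54.4 ± 3.41 in KO shControl (log2 2.65, SE 0.0935, adjusted p = 3.24e-15).

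Of the azurophil granule members, *CTSG*, *ELANE*, *MPO* and *PRTN3* were absent or close to it. *CTSG* had 0 counts among the 408064969 gene counts of the 12 libraries, which allows a level of up to 0.00735 CPM (3 counts, counting error only). *ELANE* had 3 counts, all in WT shMBD6 replicate 3, and *MPO* 11 counts over all libraries with at most 4 in any. *PRTN3* had 39 counts, of which 13 fell in KO shMBD6 replicate 1 while the other two libraries of that group had 0. None of these 4 genes can be compared between groups at this depth.

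*AZU1* was the only azurophil member with counts to test, and the only tested member that was lower with shMBD6 in WT. It had 33, 48 and 16 counts in WT shControl and 10, 11 and 9 in WT shMBD6. In the KO it had 24, 42 and 25 counts with shControl and 25, 17 and 19 with shMBD6. On the CPM scale the hairpins did not overlap in either genotype, at 0.557 to 1.20 against 0.261 to 0.299 in WT, and at 0.707 to 1.18 against 0.523 to 0.673 in KO. The log2 fold change was −1.78 (SE 0.39) in WT and −0.63 (SE 0.358) in KO, and the difference between these was 1.15 (SE 0.532). On the spike-in scale the WT value was −0.65 (SE 0.404). KO against WT was −0.15 (SE 0.343) with shControl, with a sign that turned on the spike-in scale (1.11), and 1.00 (SE 0.406) with shMBD6.

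Of 14 other azurophil granule genes 12 were tested, most of them lysosomal enzymes that all cells make. Against WT, 4 rose and 6 fell in the KO with shControl, and 4 rose and 5 fell with shMBD6. With shMBD6 2 rose and 6 fell in WT, and 3 rose and 4 fell in KO. Over all tested genes 22.2%, 22.9%, 20.4% and 18.5% were called higher in these 4 comparisons, and 20.7%, 21.6%, 19.2% and 16.3% lower. The largest change was that of *PRSS57*, neutrophil serine protease 4, whose start lies 140 kb from that of *AZU1* in the cluster on chromosome 19 that also holds *PRTN3* and *ELANE*. It read 13.7, 14.5 and 14.0 CPM in WT shControl, 5.12, 5.94 and 4.87 in WT shMBD6, 24.0, 23.2 and 24.9 in KO shControl and 14.9, 15.1 and 13.9 in KO shMBD6. Like *AZU1* it was lower with shMBD6: it fell by 1.41 in WT (SE 0.0901, adjusted p = 1.90e-10) and by 0.72 in KO (SE 0.0799, adjusted p = 5.37e-07). It rose in KO against WT by 0.77 with shControl and 1.46 with shMBD6 (adjusted p = 1.04e-07 and 2.89e-11). *LYZ*, lysozyme, rose with shMBD6 in WT from 37.8 ± 1.73 to 50.4 ± 1.11 CPM (log2 0.41, adjusted p = 3.04e-06). *BPI* and *DEFA4* stayed under 10 counts in every library.

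*PRG2* was at the edge of detection. It had 0, 2 and 7 counts in WT shControl, 0, 5 and 11 in WT shMBD6, 12, 13 and 22 in KO shControl and 12, 16 and 4 in KO shMBD6. Only KO shControl reached 10 counts in each library, and the 2 shControl groups did not overlap. KO against WT with shControl was 2.27 (log2, SE 0.868). It lost its call in each of 6 fits that left out 1 library: WT shControl replicate 1 or 2, WT shMBD6 replicate 2, or any KO shControl library (1.76 to 2.43). In the other three comparisons the groups overlapped.

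Other genes of eosinophils and basophils included several with large differences. Of 15 listed, 8 were tested. In KO against WT 4 rose with shControl and 6 with shMBD6, and 0 fell. With shMBD6 6 rose and 1 fell in WT, and 6 rose and 0 fell in KO. Among all tested genes 22.2%, 22.9%, 20.4% and 18.5% were called higher in these 4 comparisons, and 20.7%, 21.6%, 19.2% and 16.3% lower. The list was chosen with results of these data known. Genes such as *CLC*, *PRG3*, *HDC* and *IL5RA* passed the filter on low counts only through groups in which they were high, so they had to differ. The counts, medians and adjusted p-values of this list are therefore a description. The median log2 fold changes in these 4 comparisons were 1.65, 1.73, 1.79 and 0.97, against 0.00, 0.01, −0.01 and 0.00 over all tested genes; the last of them was also 0.97 with *PRG3*, which had 0 counts in KO shControl, at its lower bound. The gene that fell was *SIGLEC8*, an inhibitory lectin of eosinophils, at −0.61 in WT. On the spike-in scale this was 0.52, and the call was lost without WT shControl replicate 1 or 2 or WT shMBD6 replicate 1 (−0.59 to −0.53).

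Within this list the genes followed different patterns. *CLC*, galectin-10 of Charcot-Leyden crystals, tracked shMBD6: it had 1, 1 and 0 counts in WT shControl and 57, 56 and 66 in WT shMBD6, and 0, 1 and 0 and then 37, 47 and 40 in the KO. The ratio of summed CPM was 81.4 in WT (95% exact interval 22.2 to 677) and 116 in KO (20.5 to 4630). *PRG3*, the homologue of *PRG2* whose start lies 10 kb from it, did the same, with 0, 0 and 4 counts in WT shControl, 39, 12 and 40 in WT shMBD6, 0 in each KO shControl library and 19, 13 and 17 in KO shMBD6. Its ratio was 20.7 in WT (7.81 to 77.6), and its level in KO shMBD6 was at least 15.3-fold higher than a floor of 3 counts over the KO shControl group. *CLC* and *PRG3* thus resembled *CEBPE*, with few or no counts in either shControl group.

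*HDC*, histidine decarboxylase of basophils and mast cells, differed most by genotype instead. It had 0, 3 and 1 counts in WT shControl and 8, 10 and 3 in WT shMBD6, against 204, 223 and 169 in KO shControl and 230, 207 and 202 in KO shMBD6. KO over WT was a ratio of 144 with shControl (95% exact interval 56.0 to 530) and 30.3 with shMBD6 (19.7 to 49.3). From these few counts it also rose with shMBD6 in WT (log2 2.17, SE 0.621, edgeR adjusted p = 0.00813). *KIT*, the stem cell factor receptor of mast cells and progenitors, showed the same order (0.530 ± 0.0825 CPM in WT shControl, 1.43 ± 0.178 in WT shMBD6, 12.4 ± 1.37 in KO shControl and 17.6 ± 0.517 in KO shMBD6). With shMBD6 *KIT* was called higher in both genotypes, by 1.46 in WT (SE 0.201, edgeR adjusted p = 6.98e-06).

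*MS4A2* and *EPX* moved with both, as *TCN1* and *MS4A3* did. *MS4A2*, the β-chain of the IgE receptor, lies 235 kb from *TCN1*. It read 0.797, 0.878 and 0.487 CPM in WT shControl, 2.05, 2.31 and 2.26 in WT shMBD6, 13.2, 11.7 and 12.9 in KO shControl and 45.3, 49.1 and 44.5 in KO shMBD6. Its rise with shMBD6 was 1.58 in WT and 1.88 in KO (adjusted p = 3.62e-07 and 1.45e-12), and that in KO against WT with shControl 4.09 (SE 0.138, adjusted p = 1.83e-15). *EPX*, eosinophil peroxidase, whose start lies 77 kb from that of its relative *MPO*, had 13, 13 and 10 counts in WT shControl and 50, 57 and 51 in WT shMBD6. In the KO it had 150, 187 and 145 counts and then 312, 306 and 336. Its gain with shMBD6 was smaller in the KO (interaction −1.07, SE 0.254, adjusted p = 0.00442). *RNASE2*, *RNASE3*, *CCR3*, *CPA3*, *TPSAB1*, *TPSB2* and *FCER1A*, which include further granule and receptor genes of these cells, stayed under 10 counts in every library.

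**Figure D2:**
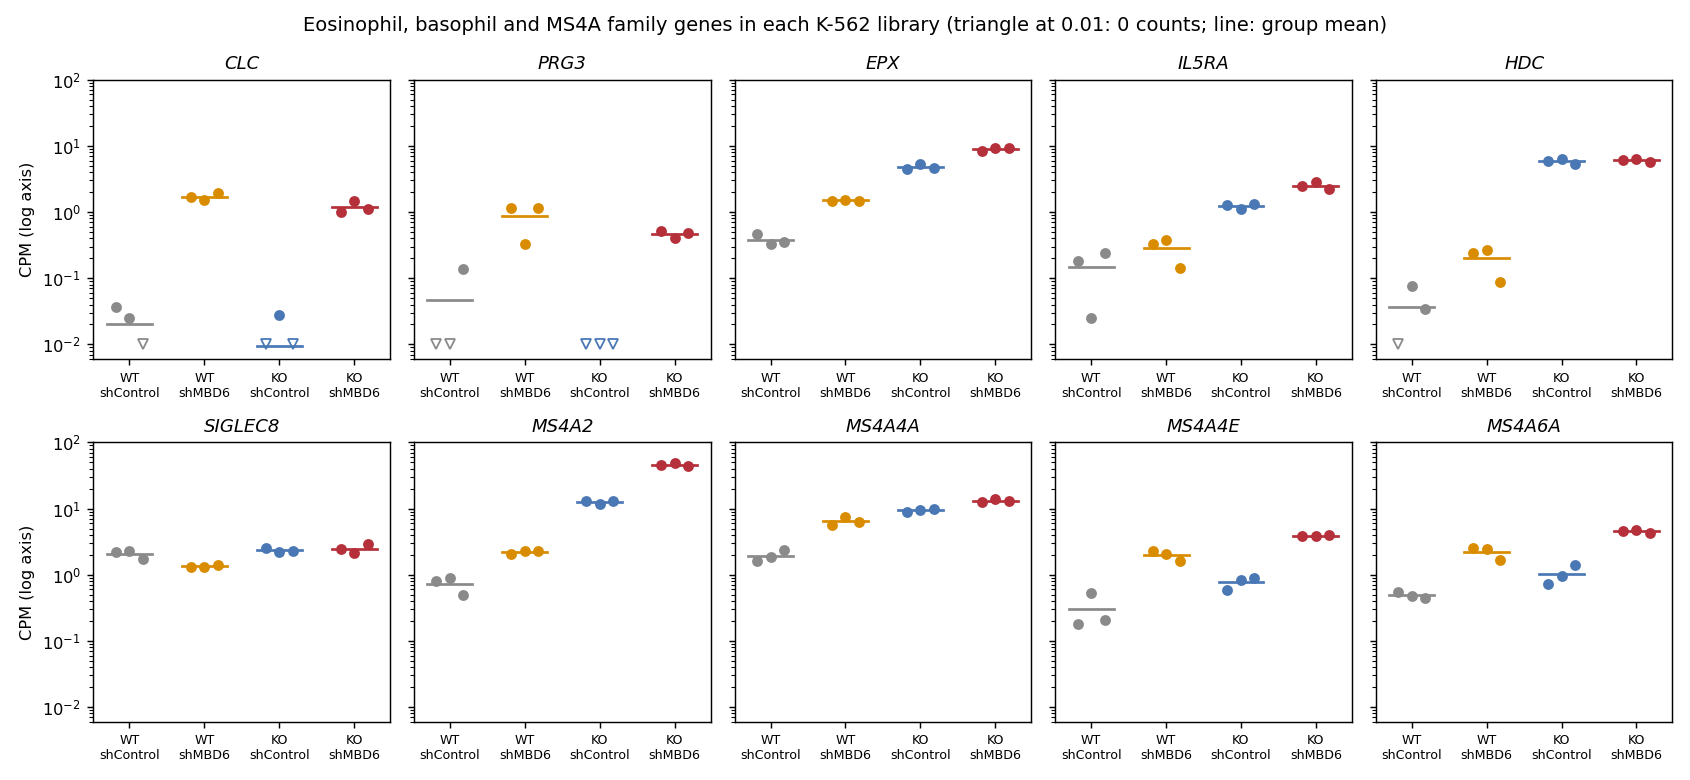
CPM on a log axis in each of the 12 libraries (points), with group means (lines) and triangles for libraries with 0 counts, for genes of eosinophils, basophils and the MS4A family. *CLC* and *PRG3* are present with shMBD6 in both genotypes, *HDC* is present in the KO under both hairpins, and *MS4A2* and *EPX* are highest in KO shMBD6.

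The 9 lists of related genes together held 138 genes, of which 86 were tested. Between KO and WT 35 rose and 19 fell with shControl and 39 rose and 17 fell with shMBD6. With shMBD6 28 rose and 22 fell in WT, and 27 rose and 15 fell in KO. Over all tested genes 22.2% and 22.9% were called higher and 20.7% and 21.6% lower in the comparisons of KO with WT, and 20.4% and 18.5% higher and 19.2% and 16.3% lower in those of shMBD6 with shControl. The related genes called higher were 40.7%, 45.3%, 32.6% and 31.4% of the 86, and those called lower 22.1%, 19.8%, 25.6% and 17.4%. Some of the 86 passed the filter only through a group in which they were high. The medians were 0.16, 0.18, 0.06 and 0.03. On the spike-in scale the counts became 81 and 0, 60 and 5, 80 and 1, and 46 and 9. With shMBD6 in WT, for instance, the other azurophil granule genes had 11 higher and 1 lower on that scale, the transcription factors 13 and 0, and the receptors 10 and 0. In the interaction 10 were higher and 11 lower, and on the spike-in scale 0 and 72.

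Genes of the specific and gelatinase granules, where haptocorrin itself is stored, were mostly absent. Of 15 listed, 5 were tested, and *CAMP*, *MMP8*, *OLFM4* and *CEACAM8* were among the 8 that stayed under 10 counts in every library. *LTF*, lactoferrin, had 3 to 7 counts in KO shControl and 17 to 21 in KO shMBD6 (log2 1.96, SE 0.693, adjusted p = 0.0331), and this call was lost without any 1 of the 6 KO libraries (1.68 to 2.34). *PTX3*, a pentraxin stored in these granules, rose with shMBD6 by 1.49 in WT and 1.51 in KO (adjusted p = 0.00721 and 0.00469), from group means under 0.4 CPM, and the WT call was lost without WT shMBD6 replicate 2 (1.14). *CRISP3* had 20 to 37 counts in KO shControl and 0 to 3 in KO shMBD6 (adjusted p = 0.000847), the reverse of *TCN1*. *LTF* reached 10 counts in each library only in KO shMBD6, and *CRISP3* only in KO shControl. Each passed the filter on low counts through that group, so it had to differ and its p-value lends no support.

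Of 20 receptors and surface proteins of granulocytes 11 were tested. Relative to WT, 8 rose and 1 fell in the KO with shControl, and 7 rose and 1 fell with shMBD6. With shMBD6 8 rose and 1 fell in WT, and 4 rose and 1 fell in KO. Of all tested genes, 22.2%, 22.9%, 20.4% and 18.5% were called higher in these 4 comparisons, and 20.7%, 21.6%, 19.2% and 16.3% lower. *CD33*, a myeloid lectin, was at 34.1 ± 1.86, 47.2 ± 2.76, 66.6 ± 2.58 and 72.8 ± 2.00 CPM in WT shControl, WT shMBD6, KO shControl and KO shMBD6. *ITGB2*, the β2 integrin chain, rose with shMBD6 by 1.30 in WT and 2.15 in KO (adjusted p = 0.00153 and 1.41e-05). *ANPEP*, which encodes CD13, rose in KO against WT with shControl by 2.54 (adjusted p = 2.16e-14) and fell by 1.03 with shMBD6 in WT and by 0.74 in KO (adjusted p = 7.43e-07 and 1.65e-06), with a value of 0.10 in WT on the spike-in scale. The chemokine and formyl peptide receptors of mature neutrophils, *CXCR1*, *CXCR2* and *FPR1*, stayed under 10 counts in every library.

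Of 13 activators and inhibitors of the granule proteases 7 were tested. *CTSC*, the cathepsin that activates these proteases, was at 87.5 ± 2.51, 87.8 ± 3.64, 122 ± 3.64 and 90.0 ± 1.87 CPM in the same order of groups, higher in KO shControl alone (KO against WT with shControl 0.49, adjusted p = 3.75e-09; interaction −0.45, adjusted p = 9.19e-06). *CST7*, cystatin F, an inhibitor of cathepsins, fell with shMBD6 by 1.47 in WT and by 1.24 in KO (adjusted p = 0.00328 and 0.00101; −0.34 in WT on the spike-in scale, not called) and rose in KO against WT with shControl by 1.98 (adjusted p = 7.93e-06).

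Of 16 other genes of cobalamin transport and use 14 were tested. Relative to the bulk of genes, 1 rose and 1 fell with shMBD6 in WT, where 39.6% of all genes were called, and 1 rose and 2 fell in KO, where 34.8% were. In the interaction the lowest edgeR adjusted p among the 14 was 0.0538, that of *CD320* (−0.30, SE 0.108). With spike-in scaling, where the median of all genes moved, 14 were higher with shMBD6 in WT, 6 were higher and 1 lower in KO, and 13 were lower in the interaction. Among genes called with groups that did not overlap, the largest difference with shMBD6 was −0.38 for *MMAB* in KO (SE 0.0615, adjusted p = 6.06e-05). *MMAB* makes the adenosylcobalamin cofactor. *CD320*, the receptor for the other transport protein, transcobalamin, fell by 0.32 in KO (SE 0.0771, adjusted p = 0.00301; −0.13 on the spike-in scale, not called). Between KO and WT with shControl 5 of the 14 rose and 3 fell, where 42.8% of all genes were called. Between KO and WT with shMBD6 4 rose and 4 fell, where 44.5% were called. In KO against WT with shControl *CUBN*, the receptor subunit for intrinsic factor with its cobalamin, rose from 1.05 ± 0.438 to 2.73 ± 0.371 CPM (log2 1.33, SE 0.270, adjusted p = 0.000405).

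Over the 12 libraries, which fall into 4 groups, log2 CPM of *TCN1* and *MS4A3* correlated with Pearson's r = 0.98 and Spearman's rho = 0.91. *CEBPE* correlated with *TCN1* at r = 0.78 and with *MS4A3* at 0.85, and *AZU1* with *TCN1* at −0.37. Of all 17936 tested genes, those most like *TCN1* by Pearson's r were *FGGY* (0.991), *MKRN1* (0.989), *SSX6P* (0.989), *CTSB* (0.987) and *TRO* (0.982). *FGGY*, a carbohydrate kinase gene, went from 11.7 CPM in WT shControl through 17.1 in KO shControl and 19.6 in WT shMBD6 to 48.0 in KO shMBD6, the same order as *TCN1*. The genes most like *MS4A3* were *ACVR1B* (0.993), *MX2* (0.993) and *GLIS3* (0.991), and those most like *SRGN* were *LDHA* (0.984), *SRP14* (0.983) and *NBEAP1* (0.980). Ranking by Spearman's rho named none of the same genes for any of the 3 members.

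The labels call the cells lymphoblasts from bone marrow, and marker genes described the line otherwise. Of 12 erythroid markers 11 or 12 were detected in each group, and their summed level was 2526 to 2624 CPM in WT shControl, 3300 to 3617 in WT shMBD6, 1373 to 1435 in KO shControl and 1351 to 1357 in KO shMBD6. It was thus higher with shMBD6 in WT and lower in the KO, where *TCN1* and *MS4A3* were higher in both cases. Of 6 B-lymphoid markers 1 or 2 were detected, with a sum of 2.59 to 5.49 CPM and *IGHM* at 0 in 3 of the groups, and of 6 T and NK markers 1 to 3, with a sum of 5.08 to 14.1 CPM. Of 6 monocyte and macrophage markers, 0, 2, 1 and 1 were detected in WT shControl, WT shMBD6, KO shControl and KO shMBD6. Their sums were 0.527 to 0.725, 2.09 to 2.59, 1.15 to 1.60 and 1.05 to 1.42 CPM, and *CSF1R* was at 0 in WT shControl. Of 6 megakaryocyte markers 2 were detected in each group, with sums of 99.6 to 105 CPM in WT shControl and 44.4 to 68.4 in the other groups. Of 6 stroma markers 2 to 4 were detected, with sums of 1.85 to 2.26, 10.6 to 11.9, 3.98 to 4.89 and 6.05 to 7.33 CPM. *COL1A1* had 25 to 39 counts in WT shControl and 339 to 347 in WT shMBD6, and 20 to 32 and 151 to 208 in the KO groups; in KO shControl *COL1A2* was the highest of the 6, at 2.16 CPM. The part of these differences in the members' levels was not tested.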

How the data were processed

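Members and gene lists were chosen with earlier results of these data known, so adjusted p-values of listed genes are a description. The authors trimmed reads with Trimmomatic 0.39, aligned them to hg38 with HISAT2 2.2.1 and counted them per GENCODE 29 gene with HTSeq 0.12.4, and they deposited raw counts with 92 ERCC spike-ins. The labels name a stranded, low-input kit and polyadenylated RNA; whether counting used strand is not given in the sources used here, so overlapping and antisense genes may share counts. Only the 12 K-562 libraries of the 24 were used, grouped by their titles. Of 58721 gene identifiers, 58207 (99.1%) matched GENCODE 44, which gave coordinates, exon lengths and starts; sequences came from the hg38 reference. Reads in no feature were 10.4% to 13.8%, ambiguous 4.01% to 4.33% and not unique 6.04% to 6.43% of those counted; all were left out, as were spike-ins (0.319% to 0.874%) outside the spike-in scale.

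All 12 libraries entered 1 edgeR 4.0.16 quasi-likelihood fit (R 4.3.3; filterByExpr, TMM, 4 group means, 8 residual degrees of freedom; common biological coefficient of variation 0.0618) with Benjamini-Hochberg adjusted p under 0.05 over 17936 genes. CPM are TMM-scaled. Log2 CPM used a prior count of 2. The fit was tested on simulated data. Alternatives were DESeq2 1.42.0, its size factors in edgeR, ERCC scaling, no filter, only the groups compared, a replicate block and leaving out each library. The study's own pipeline used DESeq2 with an unadjusted p and spike-ins. Besides all members, the named genes were TET2 and MBD6, up to 4 genes per list and comparison with the largest change among those called with groups that did not overlap, the genes most like a member, and tested genes within 500 kb. Other named genes were chosen after their values were seen. Same-numbered libraries did not deviate together (correlations −0.027 to 0.011). Intervals are exact at 95%, and a floor is 3 counts. Mouse libraries were not used here.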

Additional observations from a re-analysis of the deposited data

Results flagged for a closer look

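For 3 members the interaction of genotype and hairpin passed an adjusted p of 0.05 in edgeR; the members were chosen with their fold changes known, so the values are a description and the test lends them no support. The log2 fold change with shMBD6 was larger in the KO for *TCN1* by 1.14 and for *SRGN* by 0.25, and smaller for *MS4A3*, with a difference of −0.25 that missed the threshold when any of 7 libraries was left out (−0.26 to −0.21). On the spike-in scale these became 0.18, −0.70 and −1.21, beside −0.95 for the median gene.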

How the results depend on the processing

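DESeq2, its size factors, no filter and only the groups compared changed no call of a member. Over all alternatives, 506 of the members' fold changes kept direction and call, 15 lost a call, 4 gained one and 7 changed sign. On the spike-in scale *AZU1* in KO against WT with shControl turned to 1.11 and the *SRGN* interaction to −0.70, and related genes called rose to 81 for shMBD6 in WT and 72 in the interaction, as the median shift of all genes would give by construction. Without single libraries *AZU1* in KO against WT with shControl lay between −0.43 and 0.04 (0.036 without WT shControl replicate 2), *CEBPE* in KO against WT with shMBD6 between −0.15 and 0.33 (−0.07 without WT shMBD6 replicate 2, −0.04 and −0.15 without KO shMBD6 replicate 1 or 2), and *PRG2* with shMBD6 in WT between −0.41 and 2.25 (−0.41 without WT shMBD6 replicate 3); these genes had few counts, and the cause was not tested. Members called then numbered 3 to 4 in each comparison of KO with WT, 5 and 4 with shMBD6 in WT and KO, and 2 to 3 in the interaction; related genes called numbered 51 to 58, 51 to 59, 40 to 49, 35 to 43 and 14 to 21. With the replicate number as a block, 4, 3, 5, 4 and 3 members and 54, 56, 49, 42 and 19 related genes were called; 2 of 12 libraries correlated best with their own number, so the numbers do not pair the libraries. Genes under about 10 counts cannot be compared at this depth.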
